A study of Mus musculus with 7 samples.

Results

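The transcriptome described here is that of basal cells of the lactating mouse mammary gland, in the 4 libraries labelled Ctrl among the 7 of the study. The 4 were chosen by their genotype label alone, and no measured value entered the choice. The cells came from fresh tissue on day 2 of lactation, were freed with trypsin and were sorted by flow cytometry. The titles mark these controls as basal and Blg negative, and the series text describes them as biological replicates. The other 3 libraries carry the genotype label a3a6KO, and their titles mark them as Blg positive, but they were compared with nothing here. The labels name no floxed allele, strain, age, sorting marker or gate for the controls, and they do not say whether glands of several mice were pooled.

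Basal cells form the outer layer of the mammary epithelium and lie between the milk-producing luminal cells and the basement membrane. In lactation most of them are myoepithelial cells, which carry a smooth-muscle type contractile apparatus. Oxytocin released at suckling binds its receptor on these cells and raises calcium, the cells contract, and milk is pressed from the alveoli into the ducts.

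The libraries held 14480615, 17808127, 17041681 and 21548279 reads in Ctrl replicates 1 to 4. Of 56440 gene models, 30118 had a value above 0 in at least 1 library and 14419 had at least 10 normalised reads in all 4. Over the 11817 models with a mean of at least 50, the median coefficient of variation (CV, the SD over the 4 libraries as a percentage of their mean) was 16.3%. In 1980 of these, 16.8%, the highest library was at least 2-fold above the lowest, on value + 1. That count was 1143 without Ctrl replicate 1. Replicates 1 and 2 were alike, as were replicates 3 and 4, with 376 and 367 models at least 2-fold apart within these pairs against 625 to 1167 between them. Several results below follow this split, and the labels name no batch for it. Of the 1980 models, 873 (44.1%) had their highest values in replicates 3 and 4 and 509 (25.7%) in replicates 1 and 2. Replicate 3 also held the smallest share of mitochondrial reads, 0.755% against 1.35% to 1.52%, and long transcripts were slightly lower in it. Its median deviation from the median of all 4 libraries was −0.09 on the log2 scale in the 985 longest genes and 0.08 in the 987 shortest. By GC content, the median deviation ran from −0.11 in the 985 genes lowest in GC to 0.11 in the highest in replicate 1, and from 0.10 to −0.04 in replicate 3.

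Smooth-muscle contractile genes and milk protein genes headed the ranking of levels. Levels are compared between genes only as normalised reads per kilobase of exon, over 18202 protein-coding genes, of which 14293 were above 0. Acta2, which encodes smooth muscle α-actin, ranked first with 274287 normalised reads per kb. It was followed by Wap (whey acidic protein, 197848 per kb), Csn2 (β-casein, 166927 per kb), Csn1s2a (an αS2-type casein, 152014 per kb) and Myl9, the regulatory light chain of smooth muscle myosin (118784 per kb). The 25 highest genes included 6 of the contractile list (Acta2, Myl9, Tagln, Tpm2, Csrp1 and Cnn1) and 6 of the milk list (Wap, Csn2, Csn1s2a, Glycam1, Trf and Csn3). They also included 4 immediate early or heat shock genes (Fos, Hspb1, Atf3 and Egr1). The remaining 9 were Ubb, which encodes ubiquitin, the actin regulator Dstn, Actb, Ifitm3, the matrix protein Sparc, the chemokine Cxcl14, the lipid carrier Apoe, the keratin Krt14 and the oxytocin receptor Oxtr. In 7 of the 25, the milk genes and Atf3, the libraries were at least 2-fold apart. Some milk genes therefore had no fixed place, with Csn3 ranking between 8 and 63, Glycam1 between 6 and 51 and Trf between 7 and 34 in single libraries. The highest milk genes moved less, with Wap between 1 and 4, Csn2 between 2 and 8 and Csn1s2a between 4 and 9. Sparc stayed between 15 and 17 and Myl9 between 2 and 5.

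**Figure D1:**
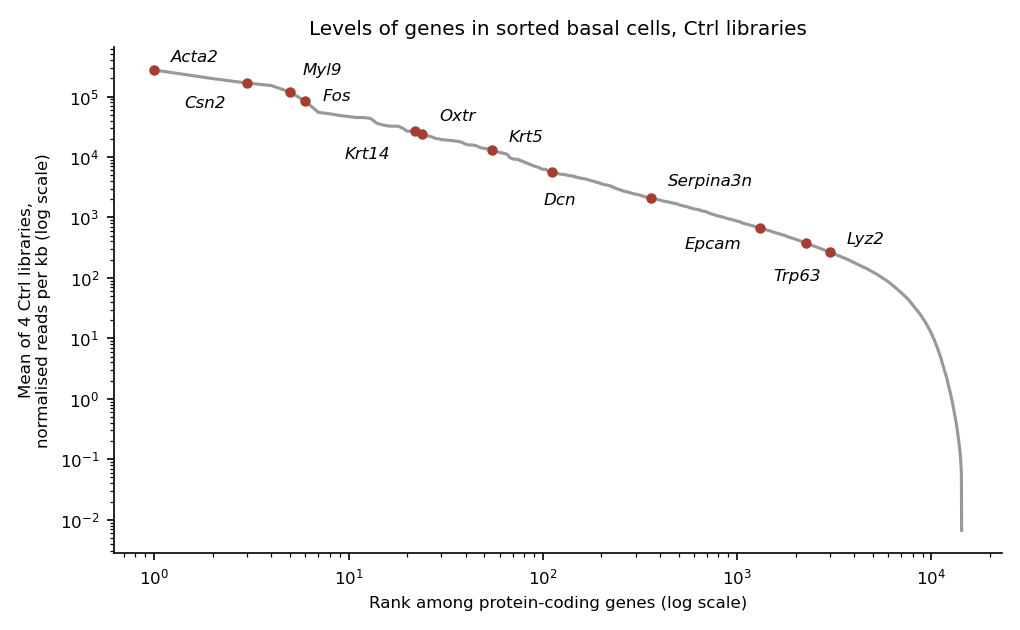
Mean level of each protein-coding gene (normalised reads per kb of exon, mean of the 4 Ctrl libraries, log scale) against its rank (log scale). Points mark named genes, from Acta2 at rank 1 and Myl9 at rank 5 to Trp63 at rank 2269 and the macrophage gene Lyz2 at rank 2995.

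The sequences before the start sites of genes from these leading groups are shown with the motifs found in them. The CArG box is the element bound by serum response factor, which drives smooth-muscle genes, and TTCNNNGAA is the core of the element bound by STAT factors, which carry the prolactin signal to milk genes. Both strands were searched in the 250 bases before the start site for exact matches only, and the motifs printed do not overlap. The CArG box was taken as CCWWWWWWGG, where W is A or T, so sites that differ from it by 1 base were not counted. The bases come from the RefSeq table (GRCm38.p6), run 5′ to 3′ toward the gene, and end 1 base before the start. Capitals mark a CArG box in Myl9 and Cnn2, TTCNNNGAA in Csn2, Csn1s1 and Glycam1, and TATAAA in Fos. Cnn2 and Csn1s1 were named for these matches, after their values were seen. Wap and Krt5 were also searched, held none of these motifs and are not printed. Acta2 is shown as the gene with the highest level and held no exact match in the stretch printed. That stretch contains ccctatatgg and ccttgtttgg, which each differ from the CArG pattern by 1 base.
Acta2, chr19:34255374-34255523, minus strand: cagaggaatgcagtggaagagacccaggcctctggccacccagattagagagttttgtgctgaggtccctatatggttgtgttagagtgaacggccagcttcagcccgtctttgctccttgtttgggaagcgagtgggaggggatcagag
Myl9, chr2:156775214-156775463, plus strand: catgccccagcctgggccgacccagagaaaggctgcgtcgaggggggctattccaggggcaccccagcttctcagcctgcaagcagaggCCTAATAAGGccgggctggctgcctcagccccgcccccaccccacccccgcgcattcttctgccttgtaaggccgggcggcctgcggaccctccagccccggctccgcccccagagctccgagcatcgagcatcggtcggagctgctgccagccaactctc
Cnn2, chr10:79988350-79988599, plus strand: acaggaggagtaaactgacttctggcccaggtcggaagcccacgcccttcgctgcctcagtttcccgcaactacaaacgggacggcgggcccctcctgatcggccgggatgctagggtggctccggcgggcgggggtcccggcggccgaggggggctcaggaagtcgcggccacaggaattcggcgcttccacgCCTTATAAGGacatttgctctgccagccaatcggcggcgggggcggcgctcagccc
Csn2, chr5:87699426-87699575, minus strand: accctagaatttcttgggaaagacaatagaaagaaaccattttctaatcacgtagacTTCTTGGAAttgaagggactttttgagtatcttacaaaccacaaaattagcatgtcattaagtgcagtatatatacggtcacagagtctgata
Csn1s1, chr5:87666058-87666207, plus strand: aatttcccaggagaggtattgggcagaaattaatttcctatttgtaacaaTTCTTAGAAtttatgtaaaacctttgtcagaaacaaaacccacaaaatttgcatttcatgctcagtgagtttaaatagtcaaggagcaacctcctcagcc
Glycam1, chr15:103565082-103565231, minus strand: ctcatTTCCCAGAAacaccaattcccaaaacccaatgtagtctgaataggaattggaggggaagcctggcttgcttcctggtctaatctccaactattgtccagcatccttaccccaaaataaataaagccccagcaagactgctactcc
Fos, chr12:85473740-85473889, plus strand: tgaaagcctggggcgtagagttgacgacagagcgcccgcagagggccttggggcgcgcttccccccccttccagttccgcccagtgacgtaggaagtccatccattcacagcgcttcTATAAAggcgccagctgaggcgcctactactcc

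The matches begin 161 bases before the start in Myl9, 56 in Cnn2, 93 in Csn2, 100 in Csn1s1, 145 in Glycam1 and 33 in Fos. Over the promoters of the 14362 ranked genes that could be matched to the table, 1.30% held a CArG box and 6.55% held TTCNNNGAA. Among matched members with a mean of at least 10, a CArG box lay in 3 of 32 contractile genes (9.38%) and TTCNNNGAA in 3 of 16 milk genes (18.8%). TATAAA beginning 20 to 40 bases before the start, on the gene's strand, lay in 2.75% of all promoters. Its share was 0.430% among the 1395 genes with the lowest CV and 2.15% among the 1394 with the highest, of 5577 genes with a mean of at least 200. The AP-1 element TGAGTCA lay in 3.91% and the cAMP response element TGACGTCA in 2.09% of all promoters. These shares describe letters in a window and do not show binding.

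The 5 genes that mark basal cells were present in every library, and 4 of them had CVs under the median of 16.3% of all models. Acta2 (identifier GSMG0020318, chromosome 19, 34240336 to 34255373, mm10) reached 581812, 460944, 462098 and 727845 normalised reads in replicates 1 to 4, a mean of 558175 ± 126532 (SD, n = 4). Replicate 4 was the highest and replicates 2 and 3 were nearly equal. Oxtr, the oxytocin receptor (GSMG0033516, chromosome 6, 112473684 to 112490890), had 133250, 129108, 99427 and 104259, with replicates 1 and 2 above replicates 3 and 4. The keratins Krt14 (GSMG0007383, chromosome 11, 100203164 to 100207510) and Krt5 (GSMG0014537, chromosome 15, 101707070 to 101712891) pair in the intermediate filaments of basal epithelia. Krt14 had 44658, 35785, 50787 and 48485, lowest in replicate 2. For Krt5 the values were 29835, 27025, 30453 and 25458, within 1.20-fold of each other. Trp63, the transcription factor p63 that maintains basal identity (GSMG0014836, chromosome 16, 25683761 to 25892087), had 2609, 3279, 3568 and 3089. Their CVs were 22.7% for Acta2, 14.7% for both Oxtr and Krt14, 8.36% for Krt5 and 12.8% for Trp63. Models of like level had median CVs below 16.3%. The median was 12.7% at means of 1000 to 5000, the range of Trp63, and 15.3% above 5000, the range of the other markers. Per kb, Acta2 ranked 1, Krt14 22, Oxtr 24, Krt5 55 and Trp63 2269 of the 18202 genes.

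All 26 genes of the wider list of basal markers were measured and 25 had a mean of at least 1000 normalised reads. Only 1 of the 26 was at least 2-fold apart between libraries, beside 16.8% of all models, and the list's median CV was 14.02%. That gene was Sfn, which encodes the epithelial protein 14-3-3σ, at 4786, 6409, 10240 and 12625. The least variable of the markers named was Sparc, a collagen-binding matrix protein, at 87296, 85371, 90059 and 91384, a CV of 3.06%. Lgals7, a galectin of stratified epithelia, had 4439, 4435, 6925 and 4645, highest in replicate 3.

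**Figure D2:**
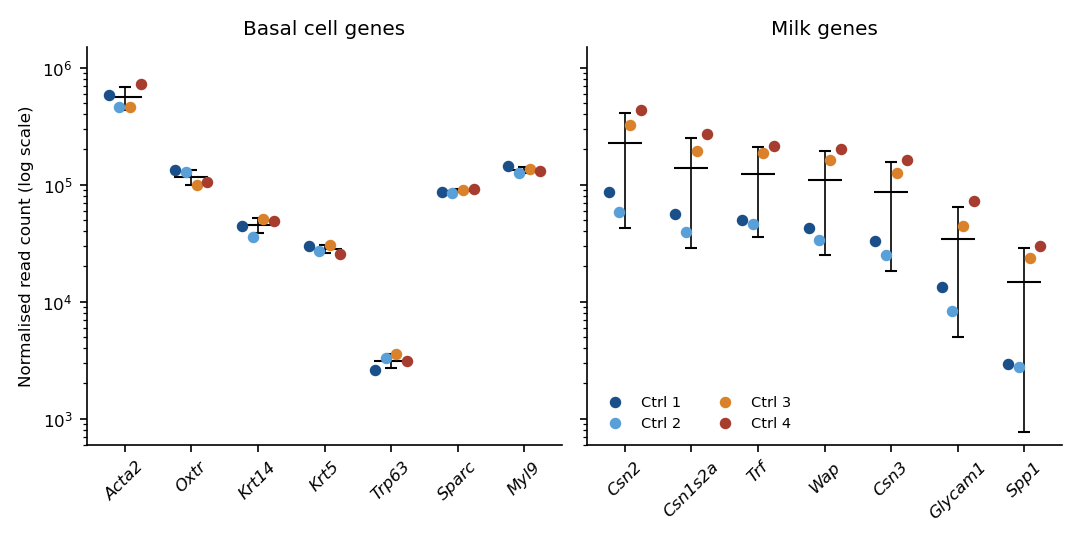
Normalised read counts (log scale) of 7 basal cell genes and 7 milk genes in the 4 Ctrl libraries, with the mean as a bar and the SD as whiskers. Sparc and Myl9 lie within 1.14-fold over the libraries, whereas each milk gene shown is higher in replicates 3 and 4 than in replicates 1 and 2.

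In the contractile apparatus, few genes were at least 2-fold apart between libraries. Its 37 measured genes held 9.48%, 8.03%, 7.16% and 8.97% of the summed values in replicates 1 to 4. Of the 36 with a mean of at least 50, 3 were at least 2-fold apart, beside 16.8% of all models. By CV they were no more even than models of like level. Their median CV was 15.7%, beside 12.7% at means of 1000 to 5000 and 15.3% above 5000. Acta2, the highest of them, had a CV of 22.7%. Myl9 had 143162, 125680, 136389 and 130721 normalised reads. Cnn1, the thin-filament protein calponin, had 68189, 62629, 61629 and 66786, a CV of 4.90%. Tagln, the actin-bundling transgelin, had 81591, 74016, 68577 and 85683. These genes kept their level in all 4 libraries. Tpm2, a tropomyosin, had 92974, 75466, 62324 and 76797, and Csrp1, a LIM protein of smooth muscle, had 66462, 50368, 45638 and 46816. The 3 exceptions were Smtn, Tagln2 and Myh14. Smtn, the smooth-muscle protein smoothelin, had 43350, 38518, 19594 and 24143, higher in replicates 1 and 2. Tagln2, a transgelin of many cell types, had the reverse order, at 1901, 3183, 4797 and 6495. The nonmuscle myosin Myh14 was low, with 201, 251, 114 and 144.

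Genes of the oxytocin and calcium signalling list were present at very unequal levels. Per kb, the calmodulin gene Calm2 (20252) lay close to Oxtr (24324), and Calm3, which also encodes calmodulin, had 1127. Atp2a2, the pump that refills the calcium store, had 2875 normalised reads per kb and the store-operated channel Orai3 had 666. Of the 23 genes of this list with a mean of at least 50, 3 were at least 2-fold apart, beside 16.8% of all models. Orai1, a channel subunit of the same family, had 278, 249, 499 and 555, higher in replicates 3 and 4. Cacna1c, the voltage-gated calcium channel of smooth muscle, had 226, 229, 95 and 174. Calml3, a calmodulin-like protein of epithelia, had 260, 187, 150 and 132, a 1.96-fold range. Kcnmb1, the β subunit of the calcium-activated potassium channel of smooth muscle, had the lowest CV of all ranked genes with a mean of at least 200, at 679, 684, 687 and 689 (0.648%).

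Basal keratins were high and keratins of luminal cells were also present. Krt15, a basal keratin, had 31619, 24838, 51403 and 22329, with replicate 3 above the others. Krt17, found in basal and myoepithelial cells, had 26192, 25117, 29123 and 32940. Of 50 keratin genes 12 were listed at 0 in all 4 libraries. Of the 13 with a mean of at least 50, 7 were at least 2-fold apart, beside 16.8% of all models. Among those 7, Krt7, a keratin of simple epithelia, had 927, 584, 1856 and 3534. The stress-induced Krt16 had 11, 27, 28 and 165, and Krt80 had 25, 17, 37 and 137. Both were low and highest in replicate 4. Junction genes varied less, with 1 of 15 genes of hemidesmosomes and desmosomes at least 2-fold apart, the desmosomal cadherin Dsc3, at 65, 84, 81 and 33. Perp, a membrane protein of desmosomes, had 15071 normalised reads per kb, Jup (plakoglobin) 3796 and the plakophilin Pkp3 2071. Of the classical cadherins, Cdh3 (P-cadherin) had 8553 ± 1087 (SD, n = 4) normalised reads and 1951 per kb. Cdh1 (E-cadherin) had 1924 ± 184 and 434 per kb, and the atypical Cdh13 had 2018 per kb.

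The basement membrane list was led by Sparc and the collagen IV chain Col4a2. Col4a2 had 35845, 31518, 18753 and 33340 normalised reads, lowest in replicate 3. The laminin chain Lamb3, a part of laminin-332, had 9726, 9158, 9105 and 9164, a CV of 3.15%, while its partner Lama3 had 16408, 14423, 10361 and 13648. Over all 11817 models with a mean of at least 50, replicate 3 was the lowest library in 2934 and replicate 4 the highest in 2772. Replicate 3 was the lowest library for 16 of the 20 basement membrane genes of that mean, and replicate 4 the highest for 12. With values scaled to library size (CPM) in place of the authors' scaling, replicate 4 was the highest for 6 and replicate 3 the lowest for 17. The counts over all models were not recomputed with CPM. Long transcripts were lower in replicate 3 in general, and the part of this in the result was not tested. At least 2-fold apart were 4 of the 20, close to the 16.8% of all models, among them Nid2, a nidogen that links laminin to collagen IV, at 340, 350, 286 and 679. Others were the laminin chain Lama4 at 555, 646, 317 and 647, and Col7a1, the anchoring fibril collagen, at 406, 341, 167 and 291.

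Receptors for this matrix were led by integrin β1. Itgb1, the β1 integrin subunit, had 17242, 17678, 17776 and 21379, and Dag1, the laminin receptor dystroglycan, 17502, 19399, 16201 and 17658. Per kb the order was Itgb1 (4854), Dag1 (2968), the laminin-binding Itga6 (2143) and the fibronectin receptor subunit Itga5 (2054). The last pair did not differ beyond their spread, at 9346 ± 1356 and 9002 ± 1801 normalised reads (SD, n = 4). Bcam, a laminin receptor of the immunoglobulin family, followed at 1706 and Itga8 at 307. Of 16 genes in this list with a mean of at least 50, 5 were at least 2-fold apart, 31.2% beside 16.8% of all models. The most variable were low, with Itgb3 at 640, 511, 203 and 346, Itga7 at 167, 178, 151 and 371, and Itgb6, an integrin of epithelia, at 121, 111, 196 and 402.

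Among 102 growth factor and cytokine ligands found, 85 had a mean of at least 10. The chemokine Cxcl14 led with 32308 normalised reads per kb, and had 78001, 57869, 53998 and 46234 normalised reads in the 4 libraries. Gas6, a ligand of TAM receptor kinases, had 9219 per kb, the Notch ligand Dll1 had 3291, and Cx3cl1, a membrane-bound chemokine, had 3201. Fgf1, an acidic fibroblast growth factor, had 2157 per kb and Pros1, another TAM ligand, 2013. Dll1 and Fgf1 varied little, with CVs of 6.41% and 6.78%. Tnfsf11, which encodes RANKL, was listed at 0 in every library, so the count of 0 allows up to 3 reads in each. Of the 70 ligands with a mean of at least 50, 32 were at least 2-fold apart, beside 16.8% of all models. Nrg2, a neuregulin, had 256, 260, 1541 and 348, high in replicate 3 only. The mucosal chemokine Ccl28 had 26, 16, 148 and 175, and Wnt7b had 30, 34, 50 and 154.

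Oxtr stood far above every other G protein-coupled receptor of the list, at 24324 normalised reads per kb against 5047 for the next, the adhesion receptor Adgrg1. The chemokine scavenger Ackr3 (3111 per kb), the Wnt receptor Fzd7 (2632), the R-spondin receptor Lgr4 (722) and Adgra3 (713) followed. Of 103 receptors found, 8 were listed at 0 in all libraries, among them Casr, the calcium-sensing receptor, and Chrm2, a muscarinic receptor. Another muscarinic receptor, Chrm1, had 1000, 598, 274 and 285. The frizzled receptor Fzd9 had 463, 173, 62 and 61, and both genes were highest in replicate 1. Of receptor kinases and single-pass receptors, the TWEAK receptor Tnfrsf12a led with 2779 per kb, and had 1061, 2445, 3124 and 5164. Tnfrsf1a, the TNF receptor (1252 per kb), Fgfr1 (1180), the collagen receptor Ddr1 (1086) and Axl, the receptor for Gas6 (1025), were steadier, with CVs of 5.44%, 17.2%, 6.30% and 6.22%. Ryk, a Wnt receptor, had 841, 1050, 4262 and 3220.

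The highest transcription factors of 396 found were mainly those induced within minutes of a stimulus. Fos (GSMG0008335, chromosome 12, 85473889 to 85477273) had 165606, 225801, 184722 and 126460 normalised reads, and ranked 6 per kb. Egr1 had 84367, 126383, 127215 and 66251, Atf3 31693, 66731, 84102 and 46761, and Jun 73869, 87277, 71956 and 49197. For Fos, Egr1 and Jun, replicate 4 was the lowest. Junb, at 17984 per kb, and Tsc22d1, a leucine zipper protein at 9521 per kb, completed the 6 highest. The 30 immediate early and heat shock genes found held 3.98%, 5.80%, 5.24% and 3.30% of the summed values. At least 2-fold apart were 12 of the 29 with a mean of at least 50, beside 16.8% of all models. Replicate 1 was the lowest in 18 of the 29, and in 3415 of all 11817 models of that mean. Hspb1, a small heat shock protein, was steady at 39505, 39330, 34638 and 35217. The AP-1 subunit Fosl1 was not, at 45, 141, 311 and 734, and Fosl2, of the same family, had 241, 556, 849 and 913. The orphan receptor Nr4a2 had 276, 644, 764 and 1072. The cells were digested and sorted before RNA was taken, per the labels, and levels in undigested tissue were not measured. Of the transcription factors, 11 were listed at 0 in every library, among them Sox2, Lef1 and Hmga2.

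Milk transcripts had the highest median CV of the gene lists. The 22 milk genes held 2.35%, 1.88%, 7.51% and 9.39% of the summed values in replicates 1 to 4. Csn2 had 85812, 58533, 322723 and 431668 normalised reads, Wap 42243, 33475, 160764 and 199576, and Csn1s2a 56181, 39490, 193853 and 269889. Trf, which encodes transferrin, had 50261, 45614, 185195 and 212492. In all 21 milk genes with a mean of at least 50, replicates 3 and 4 lay above replicates 1 and 2. That order held in 27.1% of all models. Of the 21, 19 were at least 2-fold apart, beside 16.8% of all models. The median CV of the list was 79.3%. The widest range named was that of Spp1, the milk phosphoprotein osteopontin, at 2905, 2737, 23693 and 29654. Ltf (lactoferrin) had 556, 1016, 4337 and 5742, and the bile salt-activated lipase Cel had 847, 779, 5780 and 6000. A different number of luminal cells in a sort and a different amount of RNA per cell cannot be told apart in these bulk samples, and free milk transcripts were not measured separately.

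Other luminal genes showed the same order in part. Of 16 luminal markers with a mean of at least 50, 13 were at least 2-fold apart, beside 16.8% of all models. In 10 of the 16, replicates 3 and 4 lay above replicates 1 and 2, against 27.1% of all models. Epcam, the adhesion molecule of luminal cells, had 692, 747, 1586 and 2512. The tight junction protein Cldn4 had 23, 143, 510 and 1269, the whey-type protein Wfdc18 1235, 1592, 8617 and 12906, and the luminal progenitor marker Cd14 143, 350, 827 and 1634. Lcn2, a lipocalin of secretory epithelium, had 6810, 9771, 12071 and 15470. Among the luminal keratins Krt7, given above, had the same order, but Krt8, Krt18 and Krt19 did not. Krt8 had 17769, 10962, 9479 and 13870, Krt18 2313, 1601, 1671 and 2409, and Krt19 12155, 5016, 8824 and 7090, each with replicate 1 or 4 the highest. Elf5, the transcription factor of alveolar luminal cells, had 311, 191, 743 and 957.

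Markers of stromal and blood-borne cells were present at very unequal levels, and a few of the fibroblast list ranked high. Per kb, 4 of 21 fibroblast genes were among the 1000 highest genes, and 0 of 21 endothelial and 0 of 30 immune genes. In the fibroblast list, Postn, a matrix protein, had 18664 normalised reads per kb (rank 34) and Dcn, the proteoglycan decorin, 5689 (rank 111), while the fibroblast receptor Pdgfra had 43, 71, 56 and 33 normalised reads. The summed share of the list was 0.616% to 0.816%. Dcn was steady at 11710, 11603, 10455 and 10356. The interstitial collagen Col1a1 was not, with 946, 1593, 5389 and 2131, nor was Lum, the proteoglycan lumican, with 78, 100, 499 and 211. Both were highest in replicate 3. Endothelial markers held 0.0451% to 0.0653%. Replicate 4 was the highest library in 16 of 18, and in 2772 of all 11817 models with a mean of at least 50. Pecam1 had 612, 973, 788 and 1179, Cldn5, the claudin of vessels, 476, 615, 308 and 917, and Plvap, of fenestrated vessels, 752, 759, 741 and 721. In the pericyte list the means of log2(value + 1) were 7.33, 7.36, 7.29 and 7.83, so replicate 4 stood apart. Cspg4, the proteoglycan NG2, had 239, 217, 106 and 456.

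Immune markers were low, with 0.00948%, 0.0107%, 0.0320% and 0.0229% of the summed values. All 10 with a mean of at least 50 were at least 2-fold apart and higher in replicates 3 and 4. Of all models, 16.8% were that far apart and 27.1% had that order. Cd74, the invariant chain of MHC class II, had 635, 599, 2121 and 1556, and the macrophage enzyme Lyz2 had 120, 181, 624 and 480. The pan-leukocyte marker Ptprc had 19, 12, 29 and 54. The T cell genes Cd3d, Cd4 and Cd8a and the B cell gene Ms4a1 were listed at 0 in every library. Fat cell markers were also uneven, with 0.0794%, 0.102%, 0.192% and 0.203% of the summed values and 8 of 9 at least 2-fold apart. Adipoq, the fat cell hormone adiponectin, had 91, 31, 782 and 343. The protease Cfd had 1068, 343, 8716 and 3993, and Retn, the hormone resistin, 66, 23, 636 and 200, all highest in replicate 3. The lipid droplet coat Plin1 had 14, 0, 73 and 40. Lep, which encodes leptin, was highest in replicate 4 instead, at 2071, 4588, 8023 and 14894, and these high values enter the summed shares. Of the 9 genes found of the nerve and Schwann cell list, 4 had a mean of at least 10. Sox10 had 2466, 1573, 1098 and 998, while S100b was listed at 0, so Sox10 alone is not read as a sign of Schwann cells. Haemoglobin transcripts were lowest in replicate 1, where Hba-a1 had 16 against 63, 140 and 134. The haemoglobin genes resemble one another so closely that their separate counts are uncertain. The part of these other cells, or of their RNA, in the values of further genes was not tested.

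Genes of several cell programs differed together between libraries. In 18 of 23 cell cycle genes with a mean of at least 50, replicates 3 and 4 lay above replicates 1 and 2. This order held in 27.1% of all models. The cyclin Ccna2 had 22, 34, 129 and 113 and the ubiquitin ligase partner Ube2c 30, 19, 148 and 164. The replication clamp Pcna had 502, 667, 633 and 703 and the helicase subunit Mcm6 290, 250, 297 and 280, with CVs of 13.97% and 7.39%. Ccna2 and Ube2c were named for their high CV and Pcna and Mcm6 for their level, so the spread of mitotic and replication genes cannot be compared from them. Interferon response genes had another order, with replicate 2 the highest in 26 of 29 and replicate 1 the lowest in 25. Over all 11817 models with a mean of at least 50, replicate 2 was the highest in 2035 and replicate 1 the lowest in 3415. Of the 29 interferon genes, 19 were at least 2-fold apart, beside 16.8% of all models. Ifit1, which binds viral RNA, had 343, 1542, 504 and 611, and the ubiquitin-like Isg15 had 108, 640, 240 and 402. Irf1, a transcription factor of this response, had 2244, 6096, 5803 and 4238.

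Genes of protein folding in the endoplasmic reticulum were lowest in replicate 1 for 15 of 19 and highest in replicate 4 for 14. Over all 11817 models with a mean of at least 50, replicate 1 was the lowest in 3415 and replicate 4 the highest in 2772. The chaperone Hspa5 had 7954, 14276, 15277 and 19639, and the transcription factor Xbp1 2255, 2866, 4196 and 6803. In lipid synthesis, 16 of 26 genes were at least 2-fold apart, beside 16.8% of all models. The desaturase Scd1 had 1615, 1288, 8289 and 7517 and Thrsp, a regulator of milk fat synthesis, 2656, 1564, 8662 and 8888. Fads1, another desaturase, did not share this order, at 9721, 10058, 8454 and 9293. Srebf1, the transcription factor that induces lipid synthesis, had the reverse order, at 6521, 5517, 3270 and 3005. Among glycolysis genes Ldha, lactate dehydrogenase, had 7869, 10440, 17322 and 18821, and Gapdh only 4116, 4411, 5087 and 5331. The gap junction gene Gja1 had 5952, 12753, 16312 and 18222. Of 9 claudins, 7 were at least 2-fold apart, beside 16.8% of all models.

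**Figure D3:**
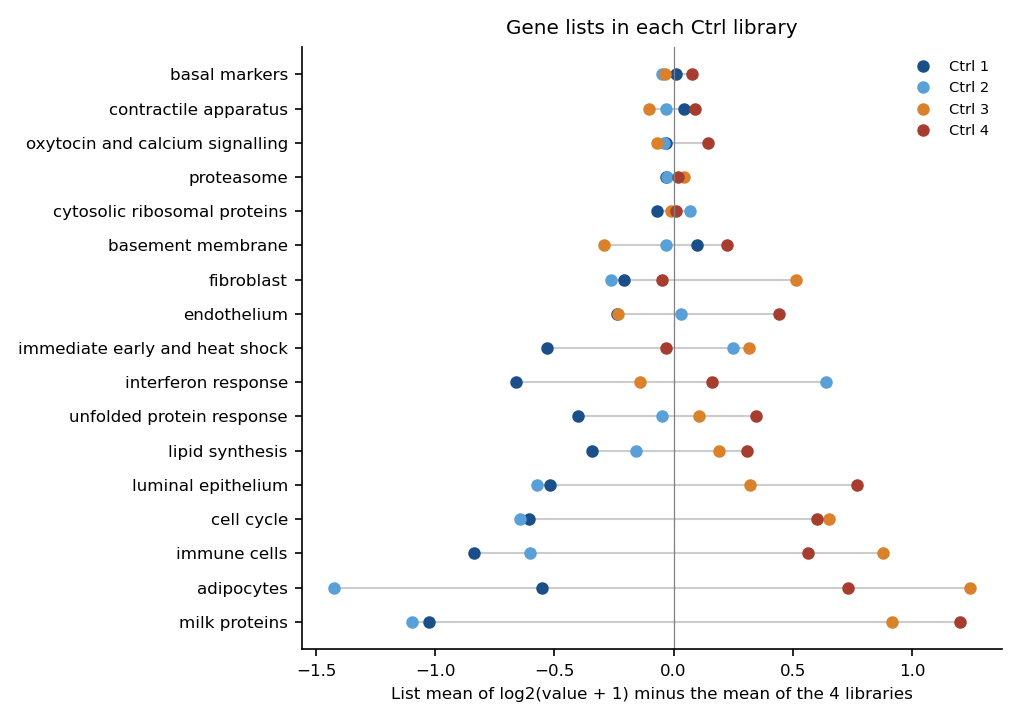
Mean of log2(value + 1) of each gene list in each Ctrl library, minus the mean of the 4 libraries, for members with a mean of at least 10. Basal markers spread over 0.12 and proteasome genes lie close to 0, whereas milk proteins run from 11.12 in replicate 2 to 13.42 in replicate 4 before the mean is taken off.

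By CV and by 2-fold counts, the machinery shared by all cells was among the most even. None of 71 cytosolic ribosomal protein genes was at least 2-fold apart, beside 16.8% of all models, and their median CV was 10.05%. Among 37 proteasome genes 1 was, the interferon-inducible subunit Psmb9 (205, 298, 219 and 131), and the median CV was 7.48%. For the respiratory chain 2 of 89 were, and the median CV was 12.8%. Its genes still followed the split of the libraries in part. In 57 of the 89, replicates 3 and 4 lay above replicates 1 and 2, against 27.1% of all models. The reverse order held in 3. With CPM scaling the count of 57 became 30, and the share of all models was not recomputed with it. The ATP synthase subunit Atp5b had 23543, 22430, 27764 and 29042. In the reference genes, none of 15 was at least 2-fold apart. Eef1a1, a translation elongation factor, had 22287, 20653, 21167 and 20370, a CV of 4.00%, whereas B2m, the light chain of MHC class I, had 10552, 19006, 18582 and 18693. By CV alone the steadiest ranked genes with a mean of at least 200, after Kcnmb1, were the zinc finger factor Vezf1 (1165, 1154, 1162 and 1174) and the sorting nexin Snx13 (268, 271, 271 and 275). Sorting genes by CV picks the lowest values by design, and with 4 libraries a CV of this size cannot be told from a chance closeness.

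Spread fell with level and then rose again among the highest genes. The median CV was 38.4% at a mean of 10 to 50 normalised reads, where counting error alone would give 20.5%, and 12.7% at 1000 to 5000, where it would give 2.26%. Above 5000 it was 15.3%, and 18.3% of the 399 models there were at least 2-fold apart. Counting error thus accounted for a small part of the spread at high levels. Even numbers made up 62.7% to 63.8% of counts from 1 to 20. If read pairs were counted as 2, which was not tested, counting error is larger than given here.

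**Figure D4:**
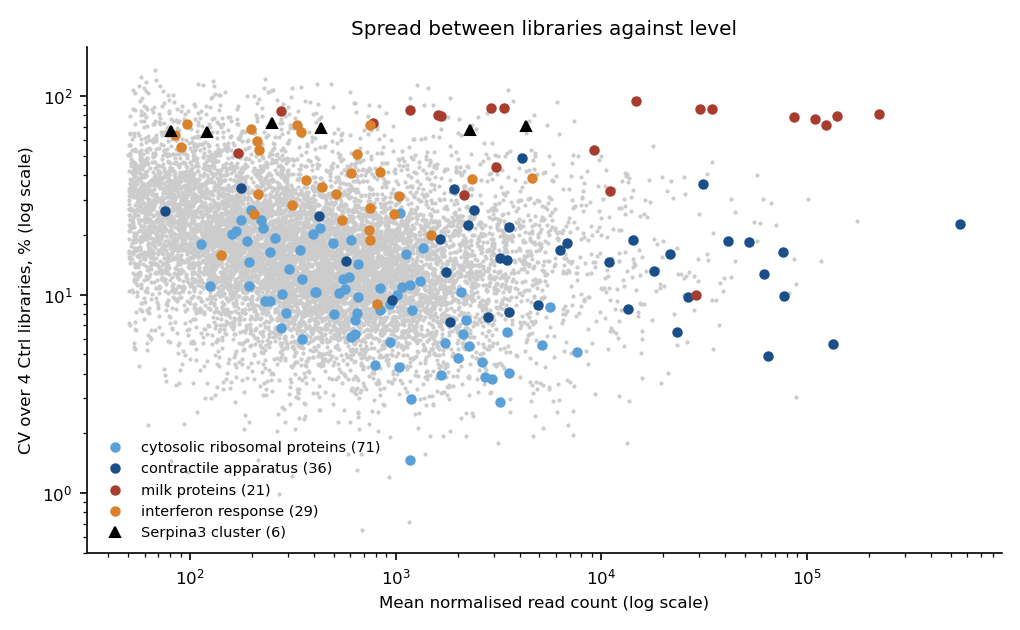
CV over the 4 Ctrl libraries (%, log scale) against mean normalised read count (log scale) for each gene model with a symbol and a mean of at least 50. Most milk protein genes and the 6 Serpina3 genes lie near the top, and ribosomal protein genes lie low, with a median CV of 10.05%.

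The genes with the highest CV belonged to several of these groups. Among the 12 highest with a mean of at least 200 were the fat cell genes Retn (121%), Adipoq (110%) and Cfd (108%), with the muscle and fat enzyme Car3 (113%) at 531, 130, 3327 and 1061. The acute-phase proteins Saa2 and Saa1, which are near-identical copies, had 12, 55, 566 and 1028, and 17, 57, 333 and 561. Cdo1, an enzyme of cysteine breakdown, had 94, 57, 891 and 335, and Plet1, a surface protein of epithelia, 209, 363, 1538 and 3658. Paip1, a partner of the poly(A)-binding protein, was high in replicate 2 alone, at 83, 600, 103 and 125. The nuclear receptor coactivator Ncoa4 had the same pattern at 395, 1176, 384 and 451. Ier5l was high in replicate 3, at 72, 84, 641 and 200. Erlec1, a lectin of the endoplasmic reticulum, was high in replicates 1 and 3, at 642, 160, 449 and 170.

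Dbp, an output factor of the circadian clock, was among the genes farthest from the others in every library, at 293, 574, 56 and 36. Nr1d1, the clock repressor REV-ERBα, had 4388, 3249, 684 and 1515, and was also higher in replicates 1 and 2. Per3, a period gene, had 31, 158, 39 and 20, with replicate 2 alone high. The labels used here do not say at what time of day tissue was taken.

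A run of serine protease inhibitor genes was nearly absent from replicate 1. Serpina3n, an acute-phase inhibitor (GSMG0008482, chromosome 12, 104406708 to 104414329, mm10), had 45, 7267, 5081 and 4831 normalised reads in replicates 1 to 4. Replicate 1 was thus 107-fold below the lowest of the other libraries. Serpina3m had 0, 441, 285 and 276, at least 91.7-fold lower, and Serpina3i 5, 690, 573 and 472. The neighbours Serpina3h, Serpina3f and Serpina3g, named after their values were seen, showed the same. Serpina3h had 0, 3244, 3263 and 2692, at least 894-fold lower in replicate 1, where the bounds take 3 reads of that library as the limit of a count of 0. Serpina3f had 3, 176, 157 and 149, and Serpina3g 2, 122, 106 and 92. These 6 genes lie between 104214543 and 104414329 on chromosome 12. Their median deviation in replicate 1 from the median of the other libraries was −6.68 on the log2 scale. The others of the serpin family named were unlike them, with the collagen chaperone Serpinh1 at 11542, 14015, 22924 and 16780 and Serpinb6a at 1995, 1816, 1719 and 1744. The 6 genes are close paralogs, so reads can be shared among them. Serpina3c, Serpina3j and Serpina3k, also named after their values were seen, were low in every library. Serpina3k had 0 in replicate 1 and 15.4, 27.5 and 12.9 in the others, Serpina3j had 0 against 4.04, 0.918 and 6.05, and Serpina3c had at most 26.6.

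**Figure D5:**
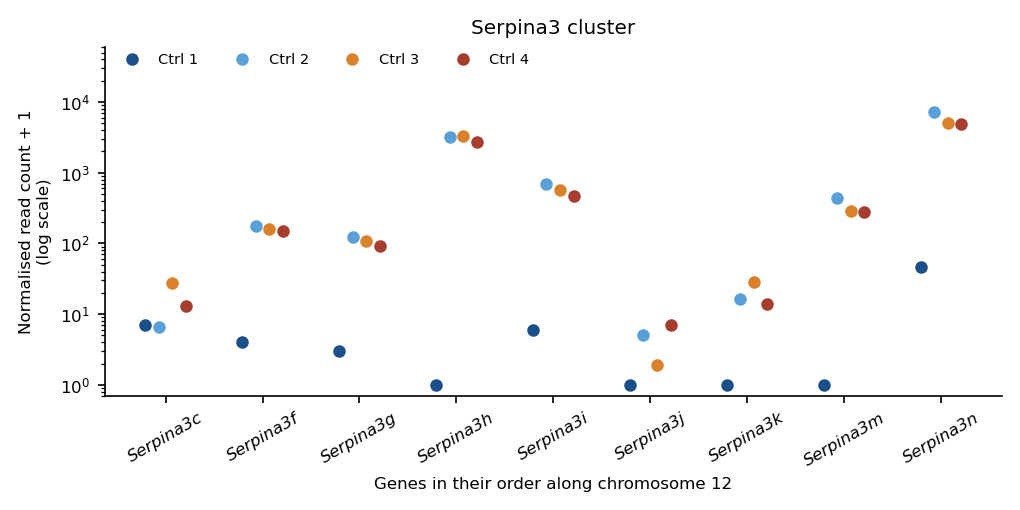
Normalised read count + 1 (log scale) of 9 Serpina3 genes, in their order along chromosome 12, in each Ctrl library. Serpina3f to Serpina3i, Serpina3m and Serpina3n are between 0 and 45 normalised reads in replicate 1 and between 92 and 7267 in the others.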

How the data were processed

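RNA of sorted basal cells was extracted on Qiagen micro-columns and amplified with a SMARTer v4 kit, per the labels' protocols. The deposited values are a signal per gene model, counts that the authors divided by DESeq2 size factors, per the file title. They are not corrected for gene length. The submitters' processing notes name STAR 2.4.0, SAMtools, Picard, FastQC and the build mm10. No source used here gives the read counter, its strand setting or the roles of these tools. Each library's values were multiples of 1 step, so reads were recovered, and 100% of values came out whole within 0.01 read.

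Only the 4 Ctrl columns were used, a single group, so no contrast was tested. Features sharing a symbol, predicted genes and features with no symbol stayed out of the ranking of 18202 GENCODE protein-coding genes but within the counts over all models. Features with no symbol held 4.08% to 6.05% of the values. Levels per kb used summed exon lengths of GENCODE vM21. Spread was described over models with a mean of at least 50, by the CV and by the highest over the lowest library on value + 1. Lists were averaged as log2(value + 1), over members with a mean of at least 10. A count of 0 was taken to allow up to 3 reads, which covers counting error only, since no molecular identifiers are named. The members and lists were chosen with earlier results of these data known. Members absent from the file under the symbol used are left out of the counts.

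Genes named were the 5 markers, the 25 highest per kb, in each list up to 6 with the highest level and 3 with the highest CV, the defining markers of other cell types, the 12 most and least variable genes and the 6 farthest from the others in each library. Not all of these are printed, and some are not reported here. Alternatives were CPM, TMM factors (edgeR 4.0.16, R 4.3.3), other minimum values and pseudocounts, thinned reads, other lengths and leaving out each library. Tables were made with Python 3.11.15, pandas 2.3.3 and numpy 2.4.6, and the calculation of spread was checked on simulated data.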

Additional observations from a re-analysis of the deposited data

Results flagged for a closer look

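Of 184 genes named here and 46 gene lists, 18 genes and 3 lists had 1 library whose gap to the others was over 0.829 of the whole range, the 95% limit for 4 values. Chance gives such a gap in about 1 of 20 groups, a rate that does not apply here because many of the genes were named for their spread.

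Replicate 4 was high for the integrin subunits Itgb1 (21379 normalised reads) and Itga7 (371), the nidogen Nid2 (679), the keratins Krt16 (165) and Krt80 (137), the ligand Wnt7b (154) and the binding protein Igfbp2 (32638). It was also high in the mean of log2(value + 1) of the pericyte list (7.83) and of the potassium channels (6.69). Replicate 3 was high for Lgals7 (6925) and Nrg2 (1541), and replicate 2 for Ncoa4 (1176), Paip1 (600.3), Per3 (158) and Slc39a1 (191). Replicate 1 was high for the TAM ligand Gas6 (27934), Slc2a4 (5349) and the laminin chain Lamb3 (9726). It was low for B2m (10552), for Serpina3f (3.01) and in the mean of the serpin list (5.90).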

How the results depend on the processing

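The number of models at least 2-fold apart was 1980, and 4843 with a minimum mean of 10 or 445 with a minimum mean of 500, which test more and fewer models. It ran from 1143 (without replicate 1) to 1727 (without replicate 2) when 1 library was left out, and from 1712 to 2136 under the other scalings, pseudocounts and thinned reads. The number of models detected was 30118 with a value above 0 in any library, 19645 with at least 1 in all 4 and 14419 with at least 10 in all 4. The median CV ran from 14.2% to 16.8% with 1 library left out. CPM scaling of the recovered reads moved the median of replicate 4 by −0.10 on the log2 scale against the authors' scaling, and TMM factors by under 0.01 in every library. Of the 25 highest genes, 20 remained without length correction and 24 with the longest transcript, an alternative chosen after seeing the data. Of 46 list means, 33 moved beyond their SD when members with a mean under 10 were added, and 10 did with a pseudocount of 10. None did under TMM factors, CPM or a left-out library, but these checks could hardly fail. Leaving out 1 of 4 libraries cannot move a mean by as much as its SD, and the scalings nearly cancel in a mean over the 4. Depth limits genes of low level. No paired analysis was possible because the 4 libraries are a single group.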

Other observations

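Among gene families not described above, 2 of 9 S100 genes, 2 of 9 annexins and 12 of 31 genes of stromal-type secreted matrix were at least 2-fold apart, beside 16.8% of all models. S100a6, a calcium-binding S100 protein, had 14446, 16269, 15681 and 15883 normalised reads in replicates 1 to 4, while S100a11, of the same family, had 3757, 1857, 5887 and 7503, lowest in replicate 2. Anxa2, an annexin that binds membranes and calcium, had 16842, 13459, 17160 and 18597. Timp2, an inhibitor of matrix proteases, had 20182, 19904, 19328 and 18609, a CV of 3.57%. The elastic fibre gene Eln differed more, at 10602, 4748, 3541 and 10225, high in replicates 1 and 4. Igfbp2, which binds insulin-like growth factors, had 13983, 10536, 14289 and 32638, high in replicate 4.

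Of 167 solute carriers with a mean of at least 50, 38 were at least 2-fold apart, 22.8% beside 16.8% of all models. Replicates 3 and 4 lay above replicates 1 and 2 in 57 of the 167, against 27.1% of all models. With CPM scaling this count was 40, and the share of all models was not recomputed. The nucleoside carrier Slc28a3 had 129, 133, 1043 and 1222, and the phosphate carrier Slc34a2 had 218, 36, 718 and 602, both higher in replicates 3 and 4. Slc3a2, a subunit of amino acid exchangers, had 14860, 11129, 10509 and 9137. Slc2a4, the insulin-responsive glucose transporter, had 5349, 3435, 3253 and 3317, high in replicate 1. The zinc carrier Slc39a1 was high in replicate 2 alone, at 37, 191, 42 and 45. The calcium-activated potassium channel Kcnn4 had 111, 79, 506 and 837. The water channel Aqp3 had 14, 14, 57 and 188, highest in replicate 4.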
